A study of Mus musculus with 6 samples.

Results

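The transcripts of 9 genes that encode the giant filaments, the M-band and the myosin-binding proteins of the sarcomere were examined in C2C12 myotubes made from *Phf2* KO cells and from control cells. The genes were taken by symbol from the deposited count matrix, in which each symbol stood on a single row: *Ttn* (titin), *Neb* (nebulin), *Obsl1* (obscurin-like 1), *Myom1*, *Myom2* and *Myom3* (the myomesins), *Mybpc1* and *Mybpc2* (the slow and fast myosin-binding proteins C) and *Mybph* (myosin-binding protein H). They are 9 of the 55401 genes of the matrix, and all 9 were among the 17310 genes that passed the filter on low counts. RNA was sequenced from 6 wells, 3 of control cells and 3 of *Phf2* KO cells. C2C12 is a line of mouse myoblasts that form myotubes in medium with 2% horse serum, and RNA was taken 2 d after that change of medium. The KO cells had received a pool of 4 plasmids, each with Cas9, the ZsGreen reporter and a different guide RNA against *Phf2*. The control cells, named wild type in the sample labels and mock in the study, had received the same plasmid with a guide that has no match in the mouse genome. Cells of both groups were sorted for ZsGreen and expanded without cloning, so each group is a single mixed pool, and an effect of the pool cannot be told apart from an effect of *Phf2*. All wells belonged to a single experiment, so the p-values measure the spread between wells.

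Titin is the elastic filament that runs from the Z-disc to the M-band and positions the thick filament, and nebulin runs along the thin filament and stabilizes it. The M-band is the lattice in the middle of the sarcomere where myomesins cross-link the thick filaments and where titin is anchored, and obscurin-like 1 joins titin and myomesin there. Proteins of the MyBP-C family bind to the thick filament in stripes and modulate contraction, and MyBP-H is a shorter relative. In cultured muscle cells most of these genes are switched on after the cells leave the cell cycle, when sarcomeres are built.

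All 9 genes were lower in *Phf2* KO cells, and in each of them every KO library lay below every control library. Across the 17310 genes tested, the groups did not overlap in 25.1%, and KO libraries lay below all control libraries in 12.2%. Of the 9 genes, 6 fell with an adjusted p under 0.05 (*Neb*, *Obsl1*, *Myom1*, *Myom2*, *Myom3* and *Mybpc1*). Of all genes tested, 6.48% passed this threshold in either direction and 3.26% were lower. The other 3 (*Ttn*, *Mybpc2* and *Mybph*) did not pass. The 9 log2 fold changes ran from -0.86 for *Mybpc1* to -0.37 for *Myom2*, with a median of -0.63, against -0.001 for all genes tested. KO levels were thus between 55.1% and 77.5% of the control levels. Adjusted p-values are from the quasi-likelihood test of edgeR with Benjamini-Hochberg adjustment over all genes tested, and levels are CPM (counts for each 1e6 counts of the library) after TMM normalization, which scales libraries to a common composition. These wells hold mixtures of myotubes and unfused cells, and fewer myotubes cannot be told apart from less of a transcript per myotube.

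The estimated counts summed to between 52526109 and 67502788 per library. The values of single genes are not read numbers: each count stood for about 75 covered bases, so a read pair of 150 bp reads adds about 4 counts. *Phf2* itself was at 95.5 to 104.6 CPM in the control libraries and at 37.6 to 41.1 CPM in the KO libraries, which is 38.8% of the control mean. All 14 myotube markers on a list (*Myog*, *Ckm*, *Des* and others) were lower in KO cells, 10 of them past the threshold, and their summed level was 10437 to 12340 CPM in control and 8236 to 9238 CPM in KO libraries. Markers of proliferating cells did not move with the groups in this way, with 0 of 8 past the threshold and sums of 221 to 244 CPM in control and 216 to 234 CPM in KO libraries. Of 7 markers of undifferentiated myoblasts, *Id2* was higher and *Cdh15* lower past the threshold, with sums of 452 to 488 CPM in control and 453 to 473 CPM in KO libraries. *Cdh15* was the largest part of these sums, at 217 CPM in control and 169 CPM in KO cells. Of the rest none passed: *Id1*, *Id3*, *Myf5* and *Pax7* had log2 fold changes of 0.29, 0.50, 0.14 and 0.17, and *Myod1* -0.18. Of 7 fibroblast markers *Col1a1* and *Col1a2* were higher past the threshold, with sums of 23091 to 24609 CPM in control and 23763 to 25382 CPM in KO libraries. The others did not pass: *Col3a1* and *Lum* had log2 fold changes of -0.11 and -0.21, and *Dcn*, *Pdgfra* and *Postn* 0.21, 0.14 and 0.18. Of 6 adipocyte markers 4 were tested and 2 rose, *Cebpa* and *Lpl*, with summed levels of 53.2 to 61.4 CPM in control and 74.4 to 83.3 CPM in KO libraries, while *Fabp4* and *Pparg* did not pass, with log2 fold changes of -0.75 and -0.051, *Plin1* was at 0 and *Adipoq* at 8 counts or fewer in every library. Of 6 osteoblast and chondrocyte markers 3 were tested and *Runx2* rose, while *Sox9* and *Bglap* did not pass, with log2 fold changes of -0.005 and -0.45. *Sp7*, *Acan* and *Col2a1* were at 14 counts or fewer in every library. Of 6 cardiac markers 3 were tested and of 5 endothelial and blood markers 1, and none of these passed, with *Myl7* and *Hbb-bs* at 0 in every library. The part of these cell-type differences in the results on the 9 genes was not tested.

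Promoter sequences of 7 of the 9 genes were read from RefSeq (GRCm38.p6), each with 250 bases before and 50 bases after the start of the transcript. *Neb* and *Myom2* were the other 2. Motifs known from muscle promoters were searched on both strands: the E-box bound by MyoD and myogenin (CANNTG), the MEF2 site, the CArG box bound by SRF and the MCAT element bound by TEAD factors (CATTCC). An E-box was present in 7 of the 7 promoters and in 72.3% of the 32851 promoters of the table. A MEF2 site was present in *Ttn* and *Myom3*, against 3.19% of all promoters, a CArG box in *Myom1*, against 1.63%, and an MCAT element in *Ttn*, *Mybpc2* and *Mybph*, against 14.7%. The 5 promoters with a motif other than the E-box are shown 5′ to 3′ on the strand of the gene, with all matches in capitals. In the *Mybph* promoter, the E-box and the MCAT element abut. These matches describe the letters of the window only.
Ttn, chr2:76982498-76982797, minus strand: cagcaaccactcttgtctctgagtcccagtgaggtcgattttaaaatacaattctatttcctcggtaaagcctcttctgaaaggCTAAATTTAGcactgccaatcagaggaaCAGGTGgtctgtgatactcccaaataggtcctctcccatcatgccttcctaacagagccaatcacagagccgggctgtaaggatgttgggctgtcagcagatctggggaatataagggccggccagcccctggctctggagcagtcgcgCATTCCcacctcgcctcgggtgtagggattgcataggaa
Myom1, chr17:71019307-71019606, plus strand: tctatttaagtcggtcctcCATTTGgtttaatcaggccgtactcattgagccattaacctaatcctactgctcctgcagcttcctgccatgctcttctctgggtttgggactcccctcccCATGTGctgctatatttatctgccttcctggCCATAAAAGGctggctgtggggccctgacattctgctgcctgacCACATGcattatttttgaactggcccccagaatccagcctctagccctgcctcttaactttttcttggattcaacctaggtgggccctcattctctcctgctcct
Myom3, chr4:135759465-135759764, plus strand: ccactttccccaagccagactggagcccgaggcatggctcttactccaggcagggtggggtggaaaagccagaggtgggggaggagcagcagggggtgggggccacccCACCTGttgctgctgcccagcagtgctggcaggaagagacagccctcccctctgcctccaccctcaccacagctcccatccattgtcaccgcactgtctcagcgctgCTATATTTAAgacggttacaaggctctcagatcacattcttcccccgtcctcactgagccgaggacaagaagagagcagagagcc
Mybpc2, chr7:44524620-44524919, minus strand: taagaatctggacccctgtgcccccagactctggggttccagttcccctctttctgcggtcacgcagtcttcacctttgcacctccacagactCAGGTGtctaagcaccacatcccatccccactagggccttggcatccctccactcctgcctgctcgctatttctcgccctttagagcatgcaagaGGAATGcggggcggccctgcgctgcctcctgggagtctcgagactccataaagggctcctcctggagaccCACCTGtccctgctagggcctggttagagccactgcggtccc
Mybph, chr1:134193198-134193497, plus strand: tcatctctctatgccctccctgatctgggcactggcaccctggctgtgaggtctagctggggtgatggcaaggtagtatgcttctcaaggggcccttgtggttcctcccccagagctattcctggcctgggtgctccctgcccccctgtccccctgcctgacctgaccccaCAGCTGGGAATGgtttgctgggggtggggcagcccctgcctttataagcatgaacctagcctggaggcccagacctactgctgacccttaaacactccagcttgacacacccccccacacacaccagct

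The MEF2 match of *Myom3* began 35 bases before the start and that of *Ttn* 166 bases before it, and the CArG box of *Myom1* began 99 bases before the start. The transcript loci that StringTie assembled in each library were set against these starts. Reference genes are listed beside these loci, so the ends of a locus may have been taken from an annotation. For *Ttn* the distance was exactly 0 bases in all 6 libraries. A match therefore does not show that a start was used. An assembled locus began within 50 bases of the RefSeq start in 6 of 6 libraries for *Ttn* and *Myom3*, in 5 for *Myom1*, in 4 for *Mybph* and in 3 for *Obsl1*. For *Mybpc1* and *Mybpc2* this was so in 1 library each, and in 4 libraries the *Mybpc1* locus began 138 to 144 bases downstream of the RefSeq start. The *Mybpc2* reads fell into 3 to 6 separate loci per library.

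*Ttn* (ENSMUSG00000051747, chromosome 2, 76703980 to 76982547, minus strand, GENCODE M21 on GRCm38 as for all positions of genes) had the largest share of counts among the 9 genes. Its level was 2036, 1985 and 1657 CPM in control replicates 1, 2 and 3, and 1179, 1228 and 1491 CPM in KO replicates 1, 2 and 3. The highest KO value and the lowest control value, both of replicate 3, stood at a ratio of 0.90. Control libraries averaged 1892 ± 205.8 CPM and KO libraries 1299 ± 168.0 CPM (SD, n = 3 each). The log2 fold change was -0.54, with a standard error of 0.13, and the adjusted p of 0.111 did not pass the threshold. It was past the threshold in 3 of 14 alternatives with all 6 libraries, with adjusted p-values from 5.69e-05 (exactTest) to 0.311 (replicate number as a block). In the fits without a single library it stayed above the threshold in all 6, from 0.0685 to 0.285. Without replicate 3 of both groups, a setting chosen after seeing the data, the log2 fold change was -0.74 with an adjusted p of 2.91e-05.

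*Neb* (ENSMUSG00000026950, chromosome 2, 52136647 to 52378474, minus strand) followed the same order of libraries within the KO group and was likewise lowest in control replicate 3. It was at 716, 718 and 607 CPM in the control replicates and at 415, 417 and 486 CPM in the KO replicates. The mean fell from 680.6 ± 63.5 CPM to 439.6 ± 40.5 CPM (SD, n = 3 each), a log2 difference of -0.63 with a standard error of 0.087 and an adjusted p of 0.00706. When the replicate number was a block, the adjusted p was 0.123, where 3.86% of all genes tested were lower past the threshold, and with the block and a correction for transcript length it was 0.0136. Over the 14 alternatives it ran from 1.25e-17 to 0.123 and was past the threshold in 12, and without KO replicate 1 it was 0.0518. The ratio of *Neb* to *Ttn*, in TPM (a level per transcript length, scaled within each library), did not separate the groups: its log2 was 0.29 ± 0.075 in control and 0.28 ± 0.12 in KO cells (SD, n = 3), with an exact permutation p of 0.9.

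**Figure D1:**
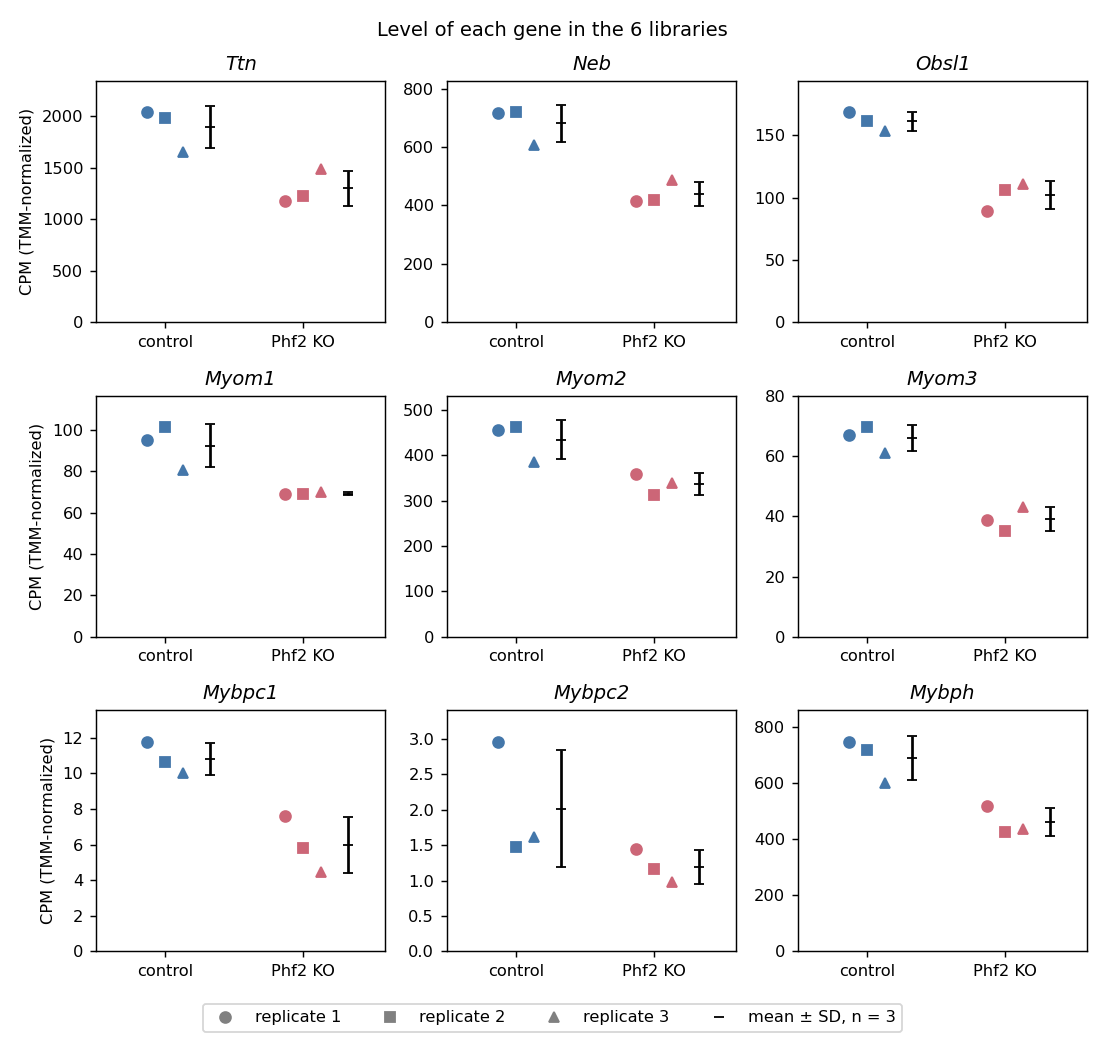
TMM-normalized CPM (vertical axis, from 0) of the 9 genes in control (blue) and *Phf2* KO (red) libraries, with 1 marker shape per replicate number and the mean ± SD (n = 3) in black. In each panel the 3 KO libraries lie below the 3 control libraries, most narrowly for *Mybpc2* (1.45 against 1.48 CPM).

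The M-band genes all fell past the threshold. *Obsl1* (ENSMUSG00000026211, chromosome 1, 75479310 to 75506452, minus strand) was at 168, 161 and 154 CPM in the control replicates and at 89.0, 105.9 and 110.8 CPM in the KO replicates. All KO values were at most 0.721 times the lowest control value. Its mean fell from 161.1 ± 7.32 to 101.9 ± 11.5 CPM (SD, n = 3 each). On the log2 scale this was -0.66 with a standard error of 0.075 and an adjusted p of 6.86e-04. In the 6 fits without a library the adjusted p was at most 0.00581, and in the 14 alternatives it was above the threshold only in limma on TPM with a pseudocount of 1 (0.0649) or 0.1 (0.061).

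*Myom3* (ENSMUSG00000037139, chromosome 4, 135759715 to 135815564, plus strand), which encodes the myomesin of intermediate-speed fibers, had the smallest p of the 9 genes. It was at 67.2, 69.7 and 61.2 CPM in the control replicates and at 38.7, 35.3 and 43.2 CPM in the KO replicates. The KO mean of 39.1 ± 3.96 CPM was 59.2% of the control mean of 66.0 ± 4.35 CPM (SD, n = 3 each). Its log2 difference of -0.76 had a standard error of 0.075 and an adjusted p of 7.29e-05. It passed the threshold in 14 of 14 alternatives (adjusted p at most 0.0319) and in 6 of 6 fits without a library (at most 0.00119), the only 1 of the 9 genes to do so in both.

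*Myom1* (ENSMUSG00000024049, chromosome 17, 71002633 to 71126856, plus strand), which encodes the myomesin common to all striated muscle, and *Myom2* (ENSMUSG00000031461, chromosome 8, 15057653 to 15133541, plus strand), which encodes the M-protein of fast fibers, fell less. *Myom1* was at 95.1, 101.3 and 80.7 CPM in the control replicates and at 68.9, 68.9 and 69.9 CPM in the KO replicates, so its KO libraries lay within 2 CPM of each other while the control libraries spread. On the log2 scale it fell by 0.42 (adjusted p = 0.00407, standard error 0.07). *Myom2* was at 455, 462 and 385 CPM in the control replicates and at 359, 312 and 339 CPM in the KO replicates, and fell by 0.37 on the log2 scale (adjusted p = 0.0232, standard error 0.076). In the limma fits on TPM both were above the threshold (0.114 to 0.135). *Myom1* stayed past the threshold in all 6 fits without a library (at most 0.041). *Myom2* did so in 2 of them and did not without control replicate 1 (0.088), control replicate 2 (0.0701), KO replicate 2 (0.0551) or KO replicate 3 (0.131).

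The myomesins were compared with each other within each library by TPM. *Myom2* made up 61.7% ± 1.14 of the myomesin TPM in control and 64.1% ± 2.05 in KO cells, and *Myom1* 22.5% ± 0.24 and 23.2% ± 0.94 (SD, n = 3). The share of *Myom3* was 15.8% ± 0.90 in control and 12.8% ± 1.12 in KO cells, and for this gene the groups did not overlap (exact permutation p = 0.1, the smallest that 3 libraries against 3 allow). On the log2 scale the ratio of *Myom3* to *Myom1* was -0.51 ± 0.065 in control and -0.86 ± 0.068 in KO cells, and KO replicates 1, 2 and 3 differed from the controls of the same number by -0.32, -0.37 and -0.35. The *Myom2* to *Myom1* ratio differed by 0.013 and the groups overlapped (exact permutation p = 1.0). The *Obsl1* to *Myom1* ratio was 0.67 ± 0.063 in control and 0.33 ± 0.28 in KO cells without overlap (exact permutation p = 0.1), with a spread among KO libraries from 0.027 to 0.57. Its difference of -0.34 was -0.19 without KO replicate 1 and -0.46 without KO replicate 2. After adjustment over the 7 ratios computed, the p for *Myom3* and for *Obsl1* was 0.233.

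*Mybph* (ENSMUSG00000042451, chromosome 1, 134193448 to 134201232, plus strand) was the most abundant of the 9 genes per transcript length. It was at 747, 719 and 599 CPM in the control replicates and at 517, 426 and 435 CPM in the KO replicates. The log2 fold change was -0.58, with a standard error of 0.12, and the adjusted p of 0.0514 lay just above the threshold. In the fit blocked on replicate number it passed, with an adjusted p of 1.88e-04, and it passed in 7 of the 14 alternatives (3.15e-06 to 0.117). It also passed without control replicate 3 (0.00432) and without KO replicate 1 (0.026), but in no other fit without a library, up to 0.191 without KO replicate 3. *Adora1*, an adenosine receptor gene on the opposite strand, overlaps *Mybph* by 2.01 kb in the annotation. *Adora1* was at 12.03 CPM in control and 8.24 CPM in KO cells, a log2 fold change of -0.55 (adjusted p = 0.0163), and whether its counts hold reads from *Mybph* cannot be told, since the strand setting of the counting is not stated. *Myog*, which encodes the myogenic factor myogenin, is the nearest gene tested downstream that does not overlap *Mybph*, at 88.8 kb, and had a log2 fold change of -0.34 (adjusted p = 0.0221). On the upstream side, *Chil1* at 3.27 kb did not pass, with a log2 fold change of -0.55 (adjusted p = 0.0979).

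*Mybpc1* (ENSMUSG00000020061, chromosome 10, 88518279 to 88605152, minus strand) was low in both groups. Its log2 fold change was the lowest of the 9 genes in the main fit with all libraries. Another gene was lower without KO replicate 3 (-0.69, against -0.83 for *Myom3*) and without control replicate 2 (-0.87, against -0.94 for *Mybpc2*). The same held in limma on TPM with a pseudocount of 1 (-0.63, against -0.72 for *Obsl1*). *Mybpc1* was at 11.8, 10.7 and 10.03 CPM in the control replicates and at 7.63, 5.79 and 4.48 CPM in the KO replicates. The mean fell from 10.8 ± 0.89 to 5.96 ± 1.58 CPM (SD, n = 3 each), a log2 difference of -0.86 with a standard error of 0.17 and an adjusted p of 0.00932. Its KO libraries lay in the opposite order to those of *Ttn* and *Neb*, with KO replicate 3 the lowest. The adjusted p was 0.0545 without KO replicate 2 and 0.0546 without replicate 3 of both groups, and in the limma fits of TPM it was 0.141 and 0.154. Over all 14 alternatives it ran from 4.87e-05 to 0.154.

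*Mybpc2* (ENSMUSG00000038670, chromosome 7, 44501699 to 44524656, minus strand), the fast isoform, was the lowest of the 9 genes. It had 169, 86 and 94 estimated counts in the control replicates and 89, 61 and 66 in the KO replicates, or about 15 to 42 read pairs per library. In CPM these were 2.96, 1.48 and 1.61 in control and 1.45, 1.16 and 0.98 in KO cells. Control replicate 1 stood apart from the others, and the highest KO value was 0.98 times the lowest control value. The log2 fold change was -0.76 (standard error 0.31) with an adjusted p of 0.194, and it was -0.37 without control replicate 1. It passed the threshold in 0 of 14 alternatives (0.131 to 0.442) and in 0 of 6 fits without a library, while its unadjusted p was 0.0296.

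*Mybpc1* and *Mybpc2* together made up less than 1% of the TPM of the myosin-binding proteins, and *Mybph* made up 99.4% ± 0.072 in control and 99.5% ± 0.077 in KO cells (SD, n = 3). The log2 ratio of *Mybph* to *Mybpc1* was 7.87 ± 0.091 in control and 8.17 ± 0.27 in KO cells (exact permutation p = 0.1, adjusted p over the 7 ratios = 0.233). The groups were barely apart, with 7.974 in control replicate 2 and 7.976 in KO replicate 1, and the difference of 0.30 was 0.14 without KO replicate 3 and 0.053 with a pseudocount of 1 TPM. That of *Mybpc2* to *Mybpc1* was -1.38 ± 0.38 in control and -1.14 ± 0.14 in KO cells, with overlapping groups (exact permutation p = 0.4).

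**Figure D2:**
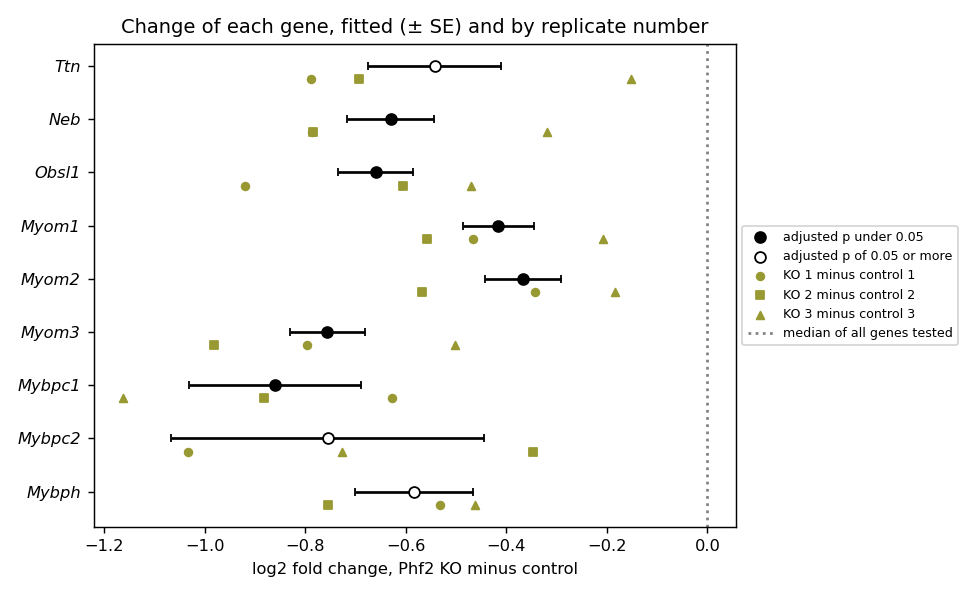
Log2 fold change (horizontal axis, *Phf2* KO minus control) of each gene from the quasi-likelihood fit with its standard error, filled where the adjusted p was under 0.05, and below it the differences between KO and control libraries of the same number. All 27 differences are below 0, as they must be where every KO library lies below every control library. The libraries numbered 3 differ least in 7 of the 9 genes.

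The libraries differed in a way that most of the 9 genes shared. Control replicate 3 was the lowest control library in 8 of the 9 genes, all but *Mybpc2*, and the difference between KO and control was smallest for replicate 3 in 7 of them, all but *Mybpc1* and *Mybpc2*. For *Ttn*, the 3 differences by replicate number were -0.79, -0.69 and -0.15 on the log2 scale, and for *Neb* they were -0.79, -0.78 and -0.32. For *Mybpc1* they were -0.63, -0.88 and -1.16. The summed level of the 14 myotube markers was likewise lowest in control replicate 3 among the control libraries, at 10437 CPM against 12340 and 12265 CPM. It was 9238, 8236 and 8611 CPM in KO replicates 1, 2 and 3, so it did not place KO replicate 3 highest as *Ttn* and *Neb* did. Without replicate 3 of both groups, 7 of the 9 genes fell past the threshold, *Ttn* and *Mybph* among them and *Mybpc1* not.

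Per transcript length, the order of the 9 genes in control cells was *Mybph*, *Myom2*, *Obsl1*, *Neb*, *Ttn*, *Myom1*, *Myom3*, *Mybpc1* and *Mybpc2*. Their mean levels were 759 ± 81.5, 101.9 ± 13.5, 59.0 ± 4.02, 49.3 ± 4.396, 40.1 ± 1.69, 37.1 ± 3.94, 25.9 ± 1.69, 3.14 ± 0.33 and 1.20 ± 0.49 TPM (SD, n = 3) in that order. The ranges of *Ttn* and *Myom1* overlapped and no other neighbours in the order did. In KO cells the order was the same except that *Myom1* (28.1 ± 1.80 TPM) stood before *Ttn* (27.0 ± 5.12 TPM), again with overlapping ranges, and the ranges of *Obsl1* (35.8 ± 6.52 TPM) and *Neb* (32.5 ± 3.37 TPM) overlapped too. The longest annotated transcript of *Ttn*, first in CPM, has 106824 bases, against 2320 for *Mybph*.

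**Figure D3:**
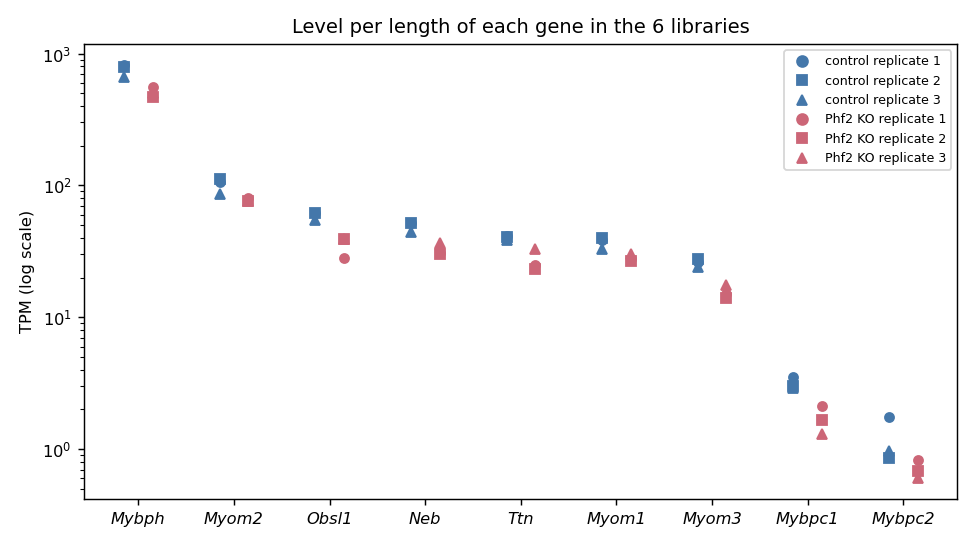
TPM (vertical log axis) of each gene in the control (blue) and *Phf2* KO (red) libraries, in the order of the control means. *Mybph* lies between 466.7 and 823.3 TPM in the 6 libraries, *Mybpc1* and *Mybpc2* at 3.51 TPM or less, and the other 6 genes between 14.0 and 112.3 TPM.

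The assembled loci describe how evenly the 279 kb of *Ttn* were covered. StringTie assembled *Ttn* into 2, 6 and 11 loci on its strand in control replicates 1, 2 and 3 and into 15, 17 and 12 loci in KO replicates 1, 2 and 3. The estimated counts of *Ttn* were 116118, 115581 and 96481 in these control replicates and 72495, 64482 and 100916 in these KO replicates. KO replicates 1 and 2 thus had the most loci and the fewest counts, and KO replicate 3 was close to control replicate 3 in both. The part of read number in the number of loci was not tested. In control replicate 1 a single locus spanned the gene, beside a short one, at a mean depth of 79.0 reads per base. In the other 5 libraries the locus at the 3′ end was the deepest, with 113.6 and 114.6 reads per base in control replicates 2 and 3 and 77.6, 75.1 and 112.6 in the KO replicates. The locus at the 5′ end had 18.3 and 13.9 reads per base in control replicates 2 and 3 and 17.2, 13.2 and 14.8 in the KO replicates. Between them lay loci of 1.0 to 9.04 reads per base. These depths are not scaled by library size and the loci do not cover the same bases, so no test was made. The depth at the 5′ end was 12.1% to 22.2% of that at the 3′ end in the 5 libraries. The other genes were assembled into at most 2 loci in each library, apart from *Mybpc2*.

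**Figure D4:**
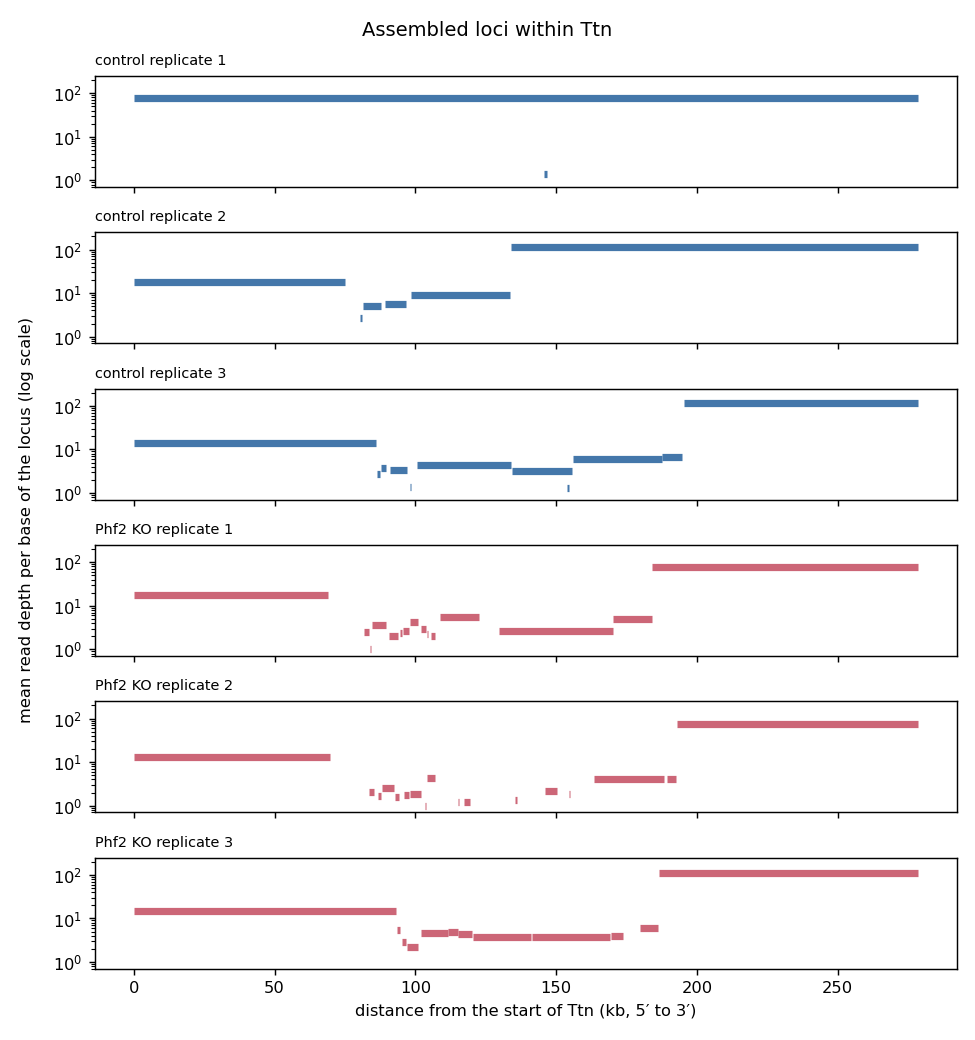
Mean read depth (vertical log axis) of the loci assembled on the strand of *Ttn*, drawn as lines over their span in kb from the start of the gene, for control (blue) and *Phf2* KO (red) libraries. The 3′ locus is deepest in each library where the gene is split. The middle holds 13, 15 and 10 loci in KO replicates 1, 2 and 3, and 4 and 9 in control replicates 2 and 3. In control replicate 1 a single locus spans the gene, beside a short one.

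Transcript length was examined because *Ttn* and *Neb* are far longer than most mRNAs. Among the other genes with a transcript of over 16 kb, 35 were tested, at a median of -0.021 on the log2 scale. Of these, 5 (14.3%) were lower past the threshold, against 3.26% of all genes tested, among them *Syne1*, *Macf1*, *Dst* and *Onecut2*. *Fat4* rose past it, with a log2 fold change of 0.38 (adjusted p = 1.38e-04). These long genes are named here after their values were seen. Correcting for transcript length in each library gave log2 fold changes of -0.53 for *Ttn* (adjusted p = 0.0209) and -0.66 for *Neb* (adjusted p = 6.71e-04), and with the replicate block as well the adjusted p of *Ttn* was 0.0938.

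Partner genes of these proteins were counted on lists written from known interactions and families. Of the 71 listed genes, 67 were tested, 50 were lower and 17 higher in KO cells, and 32 fell and 2 rose past the threshold. Their median log2 change was -0.30, against -0.001 for all genes tested. Of all genes tested, 6.48% passed the threshold in either direction and 3.26% were lower past it. Of the 17 titin partners, 6 fell and *Fhl2* rose. *Actn2*, an alpha-actinin that binds titin at the Z-disc, had a log2 fold change of -1.41, at 15.2 CPM in control and 5.74 CPM in KO cells. *Actn3*, a more abundant alpha-actinin on the list, was at 426 and 369 CPM. It did not pass, with -0.21 (adjusted p = 0.092), and is named here after its value was seen. *Ankrd2*, a stretch-response protein, had -0.64, and *Trim55* and *Trim54*, ring-finger proteins of the sarcomere, -0.52 and -0.50. *Sqstm1* and *Actn1* did not pass, with -0.10 and 0.086. Of the 18 nebulin and thin-filament partners tested, 7 fell and none rose. *Mypn* (myopalladin) had a log2 fold change of -0.80, *Klhl40*, which stabilizes nebulin, -0.76, *Lmod3*, an actin nucleator, -0.59, and *Xirp1* -0.46, while *Cfl2* and *Lasp1* did not pass, with -0.13 and 0.020.

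Of the 5 M-band partners tested, 4 fell, among them *Ckm*, the muscle creatine kinase (-0.78), *Ank1* (-0.54) and *Alpk3* (-0.52). *Speg* did not pass, with 0.048. Of the 6 genes listed as MyBP relatives and kinases, 4 were tested and *Camk2a* fell (-0.77), while *Prkaca* and *Igfn1* did not pass (-0.099 and 0.16). *Mybpc3*, the cardiac MyBP-C, had at most 3 counts in any library and *Mybphl* had 0. Among 15 genes of sarcomere assembly and titin splicing, 6 fell, with *Rbfox1* (-0.76), the myosin chaperone *Unc45b* (-0.69), *Rbm24* (-0.46) and *Smyd1* (-0.36) the largest changes, and *Mbnl1* rose (0.19). *Hsp90aa1* and *Rbfox2* did not pass, with 0.030 and -0.026, nor did *Rbm20*, the titin splicing factor, with -0.11 (adjusted p = 0.21), which is named here after its value was seen.

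**Figure D5:**
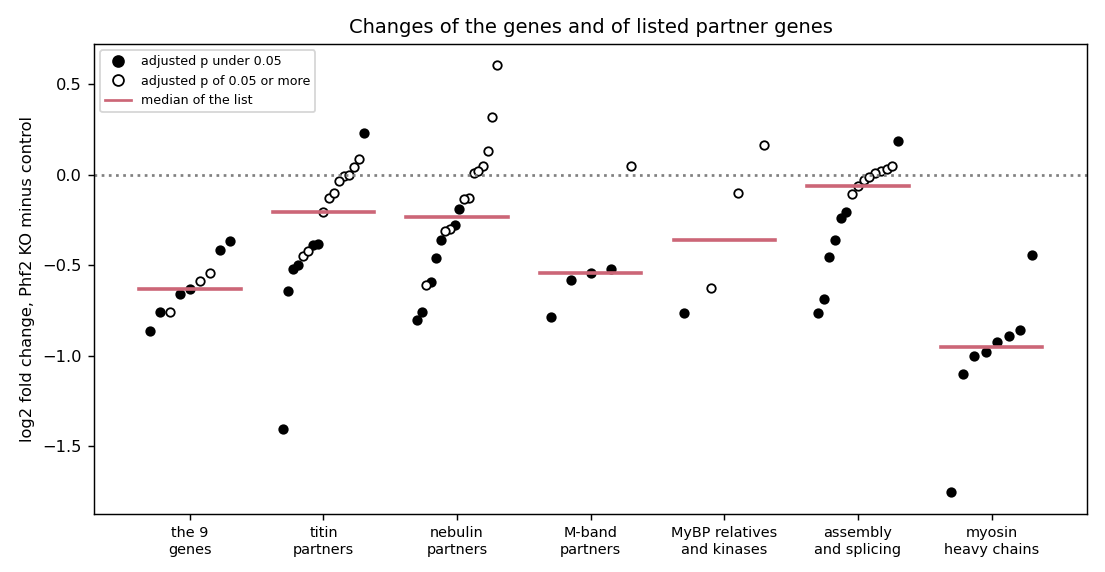
Log2 fold changes (vertical axis, *Phf2* KO minus control) of the 9 genes and of the tested genes on 6 partner lists, filled where the adjusted p was under 0.05, with the median of each list as a red line. The medians are -0.63 for the 9 genes, between -0.54 and -0.063 for the first 5 partner lists and -0.95 for the myosin heavy chains.

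Sarcomeric myosin heavy chains are the proteins that titin, the myomesins and the MyBPs bind, and they were the list with the lowest median. All 8 fell past the threshold, with log2 fold changes from -1.75 (*Myh8*) to -0.44 (*Myh3*), and their summed level was 2994 to 3606 CPM in control and 2161 to 2388 CPM in KO libraries. The level of each of the 9 genes was set against the summed TPM of these 8 genes in the same library. In CPM most of their sum was *Myh3*, the chain that fell least. It was at 2287 to 2774 CPM in control and 1790 to 1964 CPM in KO libraries. These ratios therefore do not show how the 9 genes moved against the other chains. The KO minus control difference in the log2 of this ratio lay between -0.34 (*Mybpc1*) and 0.15 (*Myom2*). That of *Mybpc1* rested on replicate 3: it was -0.096 without KO replicate 3, -0.54 without KO replicate 1 and -0.093 with a pseudocount of 1 TPM. The groups did not overlap for *Neb* (-0.063), *Myom1* (0.14) and *Myom3* (-0.21). For these 3 the exact permutation p was 0.1, and 0.3 after adjustment over the 9 genes. For *Ttn*, *Obsl1*, *Myom2*, *Mybpc1*, *Mybpc2* and *Mybph* the groups overlapped. For *Neb* the ratio was -4.59 ± 0.014 in control and -4.65 ± 0.017 in KO cells (SD, n = 3), the narrowest spread of the 9.

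Genes with the most similar pattern over the 6 libraries were sought by the root mean square difference of log2 CPM, after each gene's mean was subtracted. For *Ttn* they included *Zfp750* (0.048) and *Klhl31* (0.065), and for *Neb* they included *Frem2* (0.030) and *Ryr3* (0.052). *Ttn* and *Neb* themselves differed by 0.056 and *Myom1* and *Myom2* by 0.066. The nearest genes were *Xirp1*, *Ccdc141* and *Dysf* for *Myom1* (0.034 to 0.039), *Tnnt3*, *Alpk2* and *Zfp273* for *Myom2* (0.026 to 0.036), *Erbb3*, *Tecrl* and *Pstpip1* for *Myom3* (0.044 to 0.072), *Armcx4*, *Shc4* and *Ago4* for *Obsl1* (0.045 to 0.061) and *E2f2*, *Myl6b* and *Gm36236* for *Mybph* (0.038 to 0.046). For the low genes *Mybpc1* and *Mybpc2* the distances were larger, 0.088 to 0.109 to *Oas1c*, *Actr3b* and *Cep72* and 0.068 to 0.108 to *Fgf10*, *Gm8899* and *Npy1r*. *Zfp750*, *Frem2*, *Gm36236*, *Oas1c*, *Actr3b*, *Cep72*, *Gm8899* and *Npy1r* were at less than 1 CPM, where a pseudocount of 0.5 CPM narrows differences. Any gene that is lower in KO libraries to a like degree has a small difference on this measure.

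Of the genes next to the 9 on the chromosome, *Ccdc141*, 27.4 kb from *Ttn*, fell (log2 fold change -0.40, adjusted p = 0.00275). *Rif1*, 14.3 kb from *Neb*, rose (0.27, adjusted p = 0.0189). The other nearest tested genes on either side, apart from *Myog*, did not pass, with log2 fold changes from -0.55 to 0.45, and *Tmem198*, which overlaps *Obsl1* on the opposite strand, was at 1.75 CPM in control and 1.12 CPM in KO cells (adjusted p = 0.183). *Myl12a*, which overlaps *Myom1* by 0.246 kb on the opposite strand, was at 544.5 and 541.2 CPM (adjusted p = 0.951). *Gm26561*, annotated over the whole of *Myom1* on the same strand, was not among the genes tested, and how the counting divided reads between them is not stated.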

How the data were processed

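RNA-seq of C2C12 cells was analysed for 3 control and 3 *Phf2* KO libraries prepared with poly(A) selection and a directional kit. The authors used HISAT2 to align reads to mm10 and StringTie to quantify genes; versions, annotation and strand setting are not given in the sources used here. In the matrix the authors deposited are whole-number estimated counts, unscaled. For each library the authors also deposited TPM (a signal per transcript length, scaled to the library) and the mean read depth (coverage) of reference genes and of loci assembled by StringTie; TPM was taken from the rows of reference genes, since transcripts are listed again under assembled loci. FPKM was not used.

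The counts were tested with edgeR 4.0.16 in R 4.3.3, using filterByExpr (minimum count 10), TMM, and the robust quasi-likelihood test over 17310 genes, with a threshold of 0.05 on the Benjamini-Hochberg adjusted p. The study used exactTest, run as an alternative. Other alternatives were DESeq2 1.42.0, limma 3.58.1 (voom, and log2 TPM with pseudocounts of 1 and 0.1), other size factors, other filters, counts divided by 4, a length correction (lowess span 0.5, lengths from GENCODE M21 on GRCm38 for 55141 genes), an adjusted p under 0.01, the replicate number as a block and leaving out each library; leaving out replicate 3 of both groups was added after seeing the data. Ratios of TPM used a pseudocount of 0.1 and two-sided exact permutation tests.

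The replicate numbers may carry a pairing: over 10923 genes of at least 5 CPM, deviations from the group mean correlated by 0.25, 0.236 and 0.158 between libraries of the same number and by at most -0.013 between others. Deviations sum to 0 within a group, so the negative values follow in part from the positive ones. With 3 libraries a group, the numbered matching could also come out highest by chance. Genes, over which this was computed, are not independent of each other. No label states a pairing, and blocked fits therefore served as alternatives. Simulated counts were used to test the scripts.

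The 9 genes and all lists were chosen with earlier results of these data known. Named are the 9 genes, *Phf2* and at most 4 partners per list past the threshold (largest change) and 2 not past it (highest level). The 3 nearest genes by pattern and the neighbours on the chromosome are also named. Marker genes, the long genes, *Actn3*, *Adora1*, *Tmem198*, *Myl12a*, *Gm26561*, *Mybpc3*, *Mybphl* and *Rbm20* were named after their values were seen. A gene that these rules name is not reported here.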

Additional observations from a re-analysis of the deposited data

How the results depend on the processing

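All 9 log2 fold changes stayed below 0 in every alternative and in each fit without a library. In each of the 9 genes every KO library lay below every control library, so leaving out a library could hardly change a sign. The constant sign therefore does not measure robustness. Without a library, 4 to 7 of the 9 genes, 468 to 1039 of all genes (1122 with all libraries) and 17 to 36 of the partner genes (34) passed the threshold. The counts of all genes and of partner genes moved most without control replicate 2 (468 and 17), KO replicate 2 (577 and 20) and KO replicate 3 (613 and 18). Over the 6 fits the 9 genes had medians of -0.70 to -0.52 (log2). Limma on log2(TPM + 1) left 1 of the 9 genes, 8 partner genes and 158 genes past the threshold, and on log2(TPM + 0.1) 3, 9 and 178. An adjusted p under 0.01 left 5 of the 9 genes, 18 partner genes and 472 genes. Leaving out replicate 3 of both groups gave 7, 29 and 618, with a median of -0.74. With the replicate block 6 of the 9 genes, 33 partner genes and 1316 genes passed; *Neb* was lost and *Mybph* gained, and no other of the 9 calls changed. For these settings the cause was not tested.

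Without a library, ratios that did not overlap between groups numbered 3 to 5 of the 7 and 3 to 5 of the 9 set against myosin heavy chains. There were 5 of the 7 without KO replicate 3 and 5 of the 9 without KO replicate 1 or 3. These counts could not fall below the 3 found with all libraries, since leaving out a library cannot make separate groups overlap. Smaller groups are also apart by chance more often, so the counts do not measure robustness. With libraries paired by number, 6 of those 9 moved the same way in all pairs. Small ratio differences changed sign: *Neb* to *Ttn* (-0.069 to 0.051 without a library), *Myom2* to *Myom1* (-0.019 to 0.073), and, against myosin heavy chains, *Ttn* (-0.12 to 0.0075, and 0.014 in CPM), *Mybpc2* (-0.33 to 0.15, and 0.19 with TPM + 1) and *Mybph* (-0.14 to 0.047). With TPM + 1, 2 of the 7 ratios did not overlap. For *Mybpc2*, with 61 to 169 counts per library, the log2 fold change was -0.37 without control replicate 1 (adjusted p = 0.639). With 3 libraries a group, no exact p can be below 0.1.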
